A study of Arabidopsis thaliana with 18 samples.

Results

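The comparison described here sets dark-grown seedlings of the Arabidopsis thaliana mutant cry2-1 against dark-grown Col-0 wild type. It compares 6 of the 18 libraries of the study: the 3 titled cry2_Dark (cry2_dark 1-3) and the first 3 titled WT_Dark (WT_dark 1-3). Membership follows the library titles alone. All seedlings were 4 days old, raised in unbroken darkness on Murashige and Skoog medium at 1/2 concentration, and got no light. WT_dark 4-6, the other 3 dark wild-type libraries, served as a second reference for direction. A further 3 cry2-1 and 3 Col-0 libraries, from seedlings given 30 min of blue light at 30 µmol m-2 s-1 (cry2_blue, WT_blue), held the same genotype contrast without sharing a library with it. The 12 libraries of WT_dark 1-3, cry2_dark, WT_blue and cry2_blue entered the same fit. The dark and blue tests therefore share an estimate of spread per gene. The remaining 3 libraries come from a quadruple mutant, fl4, and were not used. All values are TPM, the length-scaled share of a gene in its library, so sequencing depth is unknown. No label says that libraries of a group came from separate cultures, so the tests measure the spread among these libraries, which may be technical. The mutant is a single line.

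Cryptochrome 2 is a blue-light receptor that is made in darkness, is activated by blue light and is then degraded. Dark-grown seedlings follow the etiolated programme: the hypocotyl elongates, the apical hook stays closed and most photosynthesis genes are held low until light arrives. A contrast of cry2-1 and wild type in darkness therefore asks what differs between the genotypes before the receptor has absorbed light.

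The labels do not say which dark wild-type set belongs with cry2_dark. Library names inside the files begin with Da for WT_dark 1-3, Db for cry2_dark, D for WT_dark 4-6 and M for the blue-light groups, and nothing states what the prefixes stand for. Since no prefix holds both genotypes in darkness, prefix and genotype cannot be told apart there. Across loci, log2 values correlated at 0.951 to 0.961 between WT_dark 1-3 and cry2_dark, at 0.900 to 0.909 between WT_dark 4-6 and cry2_dark, and at 0.970 to 0.977 within WT_dark 1-3 and within cry2_dark. Of the listed TPM, 6 loci of the ribosomal DNA units took 5.97% to 6.79% in WT_dark 1-3, 1.25% to 1.67% in cry2_dark and 0.656% to 0.792% in WT_dark 4-6. Chloroplast and mitochondrial loci took 3.43% to 3.64%, 0.471% to 0.902% and 0.208% to 0.281%. Both shares were lower in every cry2_dark library than in every WT_dark 1-3 library, and their part in the results below was not tested beyond the rescaling given with the counts.

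**Figure D1:**
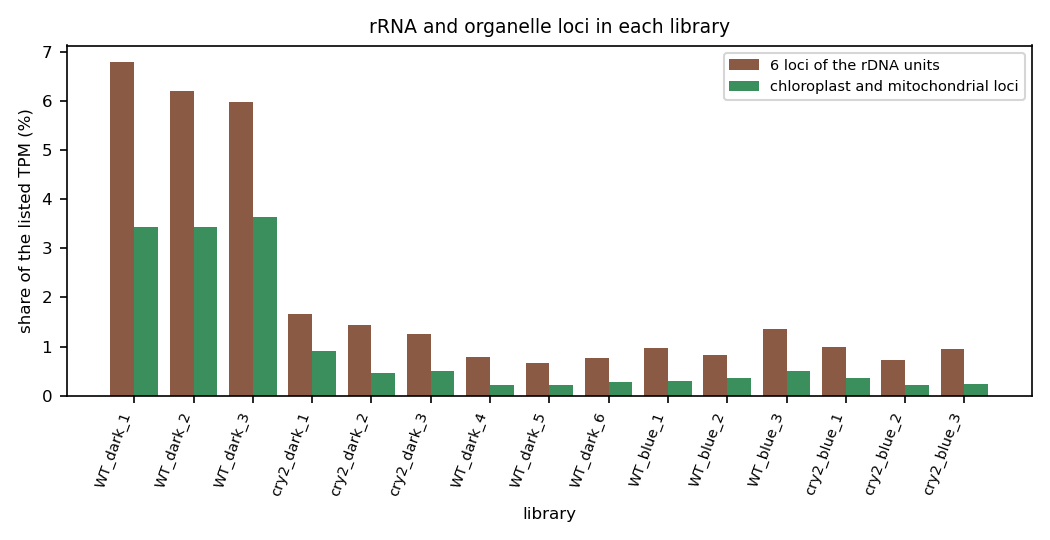
Share of the listed TPM (%, y axis) taken by 6 loci of the ribosomal DNA units (brown) and by chloroplast and mitochondrial loci (green) in each library (x axis). WT_dark 1-3 hold 5.97% to 6.79% ribosomal and 3.43% to 3.64% organelle TPM, more than any other library drawn.

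The genotype showed at the CRY2 locus itself. On chromosome 1, CRY2 (AT1G04400) had 99.8, 110.1 and 106 TPM in the libraries WT_dark 1-3 and was listed at 0 in each cry2_dark library. The gene beside it, c-NAD-MDH1 (AT1G04410), encodes a cytosolic malate dehydrogenase and was listed at 832, 777 and 768 TPM in WT_dark 1-3 and at 0 in cry2_dark. AT1G04420, annotated as a NAD(P)-linked oxidoreductase, was listed at 59.8, 63.5 and 63.6 TPM and at 0 in cry2_dark. These 3 were the only loci with at least 5 TPM in every WT_dark 1-3 and WT_blue library and at most 0.5 TPM in every cry2 library, and 0 loci had the reverse pattern. Any difference reported below is thus one between Col-0 and a line lacking transcripts of all 3 genes.

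The nearest tested locus upstream was not called, while the nearest downstream of the missing genes, AT1G04425, was called lower. Within 20 kb of CRY2 in the TAIR10.1 annotation lay 14 loci (CRY2 included), of which 10 were tested. Upstream, AT1G04390 was at 3.32, 3.48 and 4.38 TPM in WT_dark 1-3 and at 2.67, 3.77 and 3.4 TPM in cry2_dark, so the groups overlapped. Downstream, AT1G04430, a methyltransferase family gene, changed by 0.18 on the log2 scale of TPM + 1 (adjusted p = 0.433, limma with Benjamini-Hochberg adjustment over all loci tested, as throughout). Between AT1G04420 and AT1G04430 lies AT1G04425, annotated as a non-coding RNA. It was at 2.56, 2.91 and 2.18 TPM in WT_dark 1-3 and at 1.47, 0 and 0.28 TPM in cry2_dark, a log2 change of TPM + 1 of -1.27 ± 0.27 (SE, n = 3 and 3, adjusted p = 0.0106). The AT1G04425 call ended without WT_dark 2 (-1.20, adjusted p = 0.0506) or without cry2_dark 3 (-1.17, adjusted p = 0.0513), and in cry2_blue the locus stood at 6.49 to 8.90 TPM, with a change of -0.30 that was not called.

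The other malate enzymes gave small differences. Of 21 tested genes of malate metabolism, 3 were called higher and 2 lower, c-NAD-MDH1 included, beside 10.01% and 2.89% of all loci. Either rescaling gave 1 higher and 3 lower, and leaving out any single library other than cry2_dark 1 gave 1 higher. Against WT_dark 4-6, 11 were called higher and 4 lower, beside 21.3% and 20.2% of all loci. The second cytosolic malate dehydrogenase, c-NAD-MDH2, was at 51.1, 50.9 and 50.7 TPM in WT_dark 1-3 and at 63.4, 60.4 and 65.2 TPM in cry2_dark (0.30 ± 0.08, adjusted p = 0.0341). That call was lost whichever single library was left out. AT5G58330, annotated in the lactate/malate dehydrogenase family, was at 57.5, 50.4 and 50.5 TPM against 78.4, 79.5 and 87.6 TPM: it was higher (0.62 ± 0.11, adjusted p = 0.00449) and kept its call without each library. Its change against WT_dark 4-6 was -0.38 (adjusted p = 0.0452). NADP-ME1, a malic enzyme gene, was at 6.43, 7.71 and 6.27 TPM in WT_dark 1-3 and at 2.65, 3.4 and 4.33 TPM in cry2_dark (-0.82 ± 0.21, adjusted p = 0.0246). Leaving out WT_dark 1, WT_dark 2, cry2_dark 1 or cry2_dark 2 ended that call. The mitochondrial malate dehydrogenase gene mMDH1 (0.35) kept its call in 1 of 6 such fits.

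Across the genome the difference was broad and mostly small. The fit held 12 libraries, both genotypes in both light conditions, and tested the 19985 loci whose average reached 1 TPM. Of them, 2578 (12.9%) were called at an adjusted p under 0.05, 2001 (10.01%) higher and 577 (2.89%) lower in cry2_dark. Of these, 393 (1.97%) changed at least 2-fold: 229 higher and 164 lower. Among the lower ones were 78 chloroplast or mitochondrial loci, while 0 organelle loci were among the higher ones. The nuclear protein-coding genes called at least 2-fold numbered 284, with 214 higher and 70 lower. For 7835 loci (39.2%) the libraries of the groups did not overlap, and this held for all 284 of those protein-coding genes.

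The split into higher and lower depended on scaling. The median log2 change of all tested loci was 0.096. With ribosomal and organelle loci left out and the TPM of each library rescaled to the same total, the median was -0.0019 and 938 loci (4.71%) were called higher and 946 (4.75%) lower. Quantile normalization gave a median of 0 and 1217 higher and 1178 lower calls. Of the 393 loci called at least 2-fold, 295 of the 309 still tested after rescaling, and 381 of 393 after quantile normalization, were called again in the same direction. The larger changes below are therefore read in the deposited TPM, and small ones against the median of 0.096.

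The second reference matched part of these directions. Against WT_dark 4-6, which share the cry2_dark libraries with the first comparison, 8233 of 19832 loci (41.5%) were called, 4231 (21.3%) higher and 4002 (20.2%) lower, with a median of 0.018. Of the 214 protein-coding genes at least 2-fold higher against WT_dark 1-3, 127 were also higher against WT_dark 4-6, 59 of them called, and 33 were called lower. Of the 70 lower genes, 57 were tested against WT_dark 4-6; 33 were lower there too, 17 of them called, and 8 were called higher. WT_dark 4-6 and WT_dark 1-3 themselves differed at 10015 of 19703 tested loci.

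In blue light, 668 loci (3.34%) were called, 521 (2.61%) higher and 147 (0.736%) lower in cry2_blue. The blue contrast shares no library with the dark one, but both take their spread from the same fit of 12 libraries. Called in both conditions were 207 loci. Of those, 163 were higher in both and 30 lower in both, together 7.49% of the dark calls and 28.9% of the blue calls, and 14 went opposite ways. The difference between the dark and the blue effect was itself called at 561 loci (2.81%). It includes the dark contrast, in which prefix and genotype cannot be told apart.

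**Figure D2:**
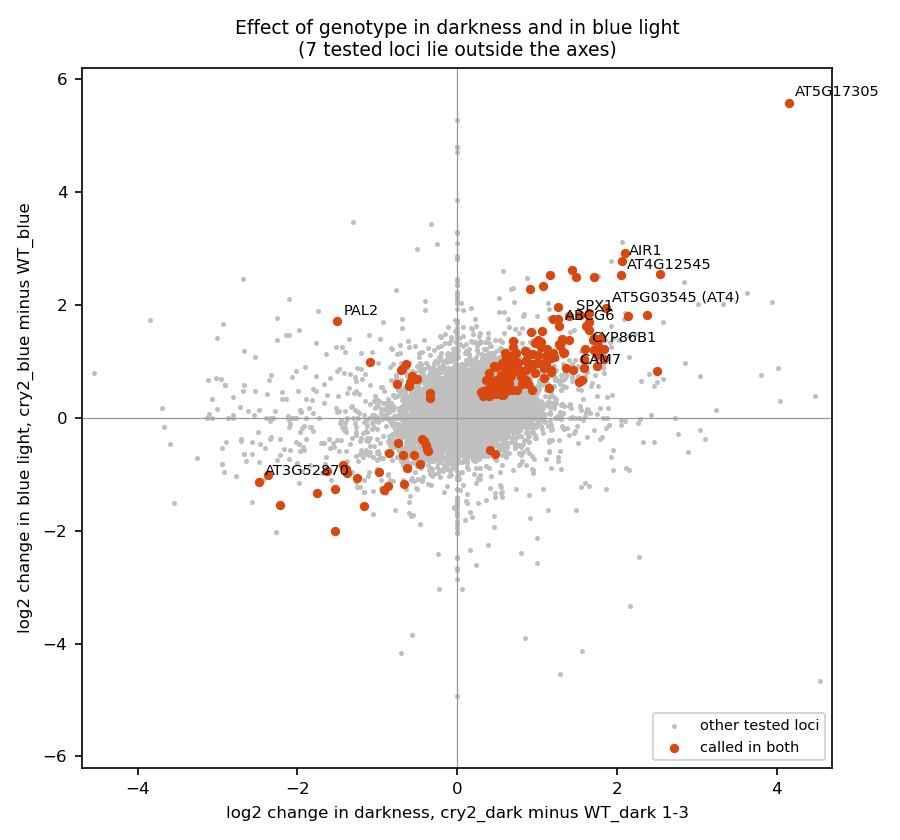
Log2 change of TPM + 1 between cry2-1 and wild type in darkness (x axis, cry2_dark minus WT_dark 1-3) and in blue light (y axis, cry2_blue minus WT_blue); each point is a tested locus, and 7 loci lie outside the axes. Loci called in both conditions are orange: 163 lie at upper right, 30 at lower left and 14 at upper left or lower right.

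The genes that were higher against both dark references and in blue light formed a short list. At least 2-fold, called and in the same direction in all 3 comparisons were 16 genes, 12 higher and 4 lower. The 4 lower ones were the 3 missing genes and AT3G52870. The higher ones include neighbouring genes on chromosome 4 that encode small cell-wall proteins of the lipid-transfer type. AIR1 (AT4G12550), known as an auxin-induced gene of root cultures, was at 41.7, 33.3 and 26.2 TPM in WT_dark 1-3 and at 137, 139 and 149.6 TPM in cry2_dark. Every cry2_dark library was above every wild-type library, and the log2 change was 2.07 ± 0.26 (adjusted p = 0.00108), beside 2.09 against WT_dark 4-6 and 2.78 in blue light. AT4G12545, beside it, was at 10.7, 6.70 and 10.4 TPM against 43.5, 34.4 and 45.1 TPM (2.05 ± 0.27, adjusted p = 0.00103), beside 2.63 and 2.52. Both calls held without each library in turn.

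The others of this list had varied roles. YLS9 (AT2G35980), a late-embryogenesis-abundant family gene linked to defence and senescence, was at 4.49, 3.80 and 3.61 TPM in WT_dark 1-3 and at 12, 16.3 and 17.9 TPM in cry2_dark (1.71 ± 0.24, adjusted p = 0.00131). It was higher by 1.73 against WT_dark 4-6 and by 1.42 in blue light. AT5G17305, an uncharacterized protein gene, was listed at 0 in all of WT_dark 1-3 and at 11.3, 14.1 and 29.2 TPM in cry2_dark. WT_dark 5 held 5.37 TPM of it and WT_blue 1 held 3.19 TPM, below every cry2 library of the same light condition, while cry2_blue held 37.2, 130.3 and 91.7 TPM. AT2G05510, a glycine-rich protein gene, was at 81.4, 35.8 and 93.4 TPM against 212, 171 and 172 TPM (1.49 ± 0.38, adjusted p = 0.0334), but its call was lost in 5 of the 6 fits without a library.

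Lower in all 3 comparisons and beyond the missing genes was AT3G52870 (chromosome 3), which encodes a protein with IQ calmodulin-binding motifs. It was at 50.8, 58.1 and 56.8 TPM in WT_dark 1-3 and at 9.01, 9.07 and 9 TPM in cry2_dark, with no overlap (-2.48 ± 0.10, adjusted p = 1.92e-08). Against WT_dark 4-6 (60.7, 56.1 and 50.4 TPM) the change was -2.50. In blue light the change was -1.13, from 54.1, 49.2 and 46.8 TPM in WT_blue to 23.1, 19.5 and 24.5 TPM in cry2_blue. AT4G16680, annotated as a nucleoside triphosphate hydrolase, was called lower in darkness: 11.5, 12.5 and 14.3 TPM against 4.02, 4.63 and 3.81 TPM (-1.42 ± 0.12, adjusted p = 5.61e-05), -1.59 against WT_dark 4-6, and -0.22 in blue light, which was not called.

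**Figure D3:**
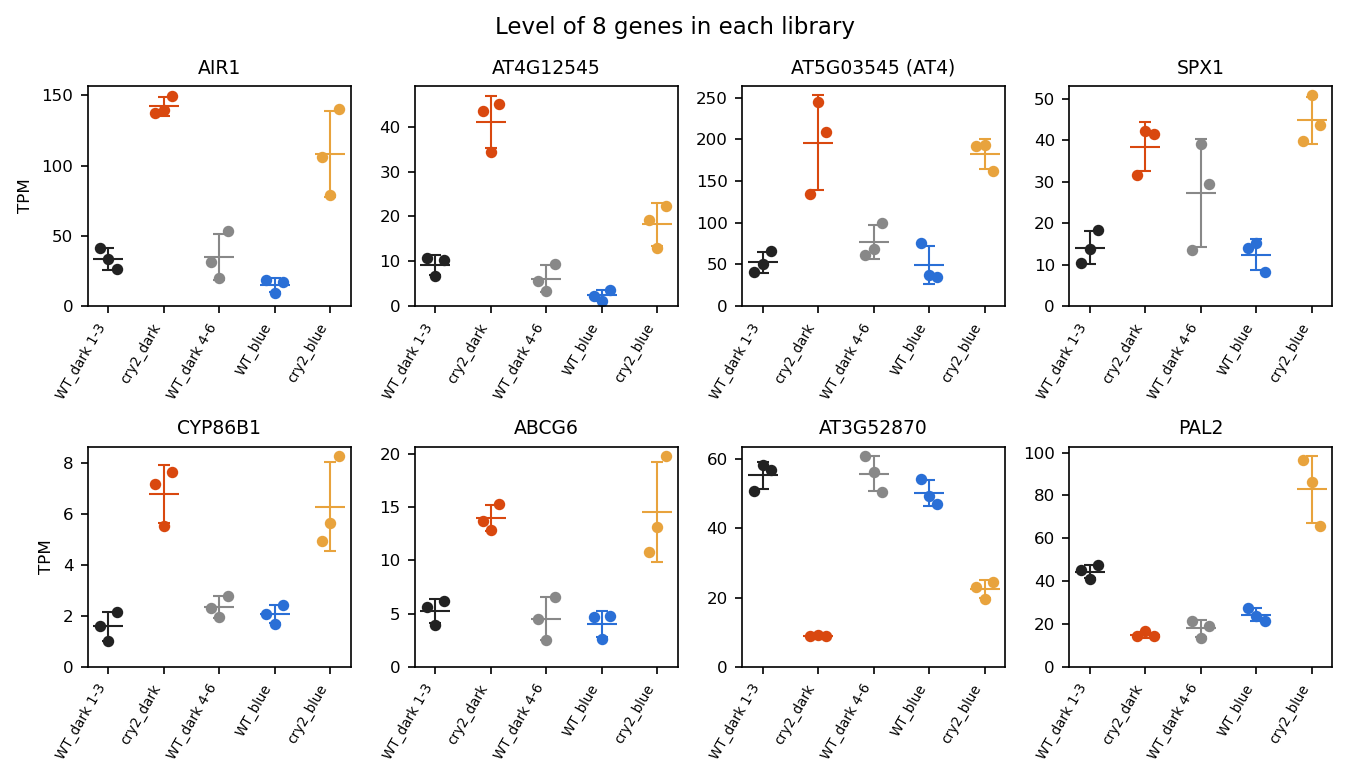
TPM (y axis, linear from 0) of 8 genes in each library of 5 groups (x axis); points are libraries, and bars give the mean ± SD of 3 libraries. The cry2_dark points of AIR1, AT4G12545, AT5G03545, CYP86B1 and ABCG6 lie above all dark wild-type points, those of AT3G52870 lie below all of them, and those of PAL2 lie below WT_dark 1-3 and overlap with WT_dark 4-6.

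A stretch of neighbouring genes on chromosome 3 was higher in cry2-1 in both light conditions. Loci were ordered along the chromosomes, and runs of consecutive tested loci called in the same direction in darkness and in blue light were counted; this scan was chosen after the values were seen and carries no test. The longest run held 6 loci from AT3G43700 to AT3G43810, the next was the CRY2 trio with 3, 7 runs held 2 loci, and 165 loci stood alone. Calmodulin gene CAM7 (AT3G43810) was at 174, 155 and 164 TPM in WT_dark 1-3 and at 493, 413 and 445 TPM in cry2_dark, a log2 change of 1.45 ± 0.10 (adjusted p = 7.64e-06). Its neighbour GSTU27, a glutathione S-transferase gene, was at 61.3, 65.7 and 74.3 TPM against 179.6, 188 and 217 TPM (1.52 ± 0.13, adjusted p = 4.98e-05). In both, all cry2_dark libraries were above all 6 dark wild-type libraries, with changes of 1.72 and 1.16 against WT_dark 4-6.

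The other members of the run were BPM6, a BTB-POZ and MATH domain gene that acts with CUL3 ubiquitin ligases (0.87), LTPG2, a lipid-transfer protein gene (0.86), the leucine-rich repeat gene AT3G43740 (0.97) and ZIFL2, a zinc-induced facilitator-like transporter gene (0.94). In blue light, the run from BPM6 to CAM7 changed by 0.99, 0.84, 0.80, 1.13, 0.63 and 0.84. Starts of BPM6 and CAM7 lie 61.2 kb apart in TAIR10.1. The tested loci on either side, AT3G43670 (-0.18) and AT3G43840 (-0.27), were not called. Against WT_dark 4-6, BPM6 changed by 0.94, LTPG2 by 1.66 and AT3G43740 by 0.96, each called. ZIFL2 alone lost its call without WT_dark 2 (0.91, adjusted p = 0.0628) or without cry2_dark 3 (0.94, adjusted p = 0.0575), and against WT_dark 4-6 its change was 0.02.

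**Figure D4:**
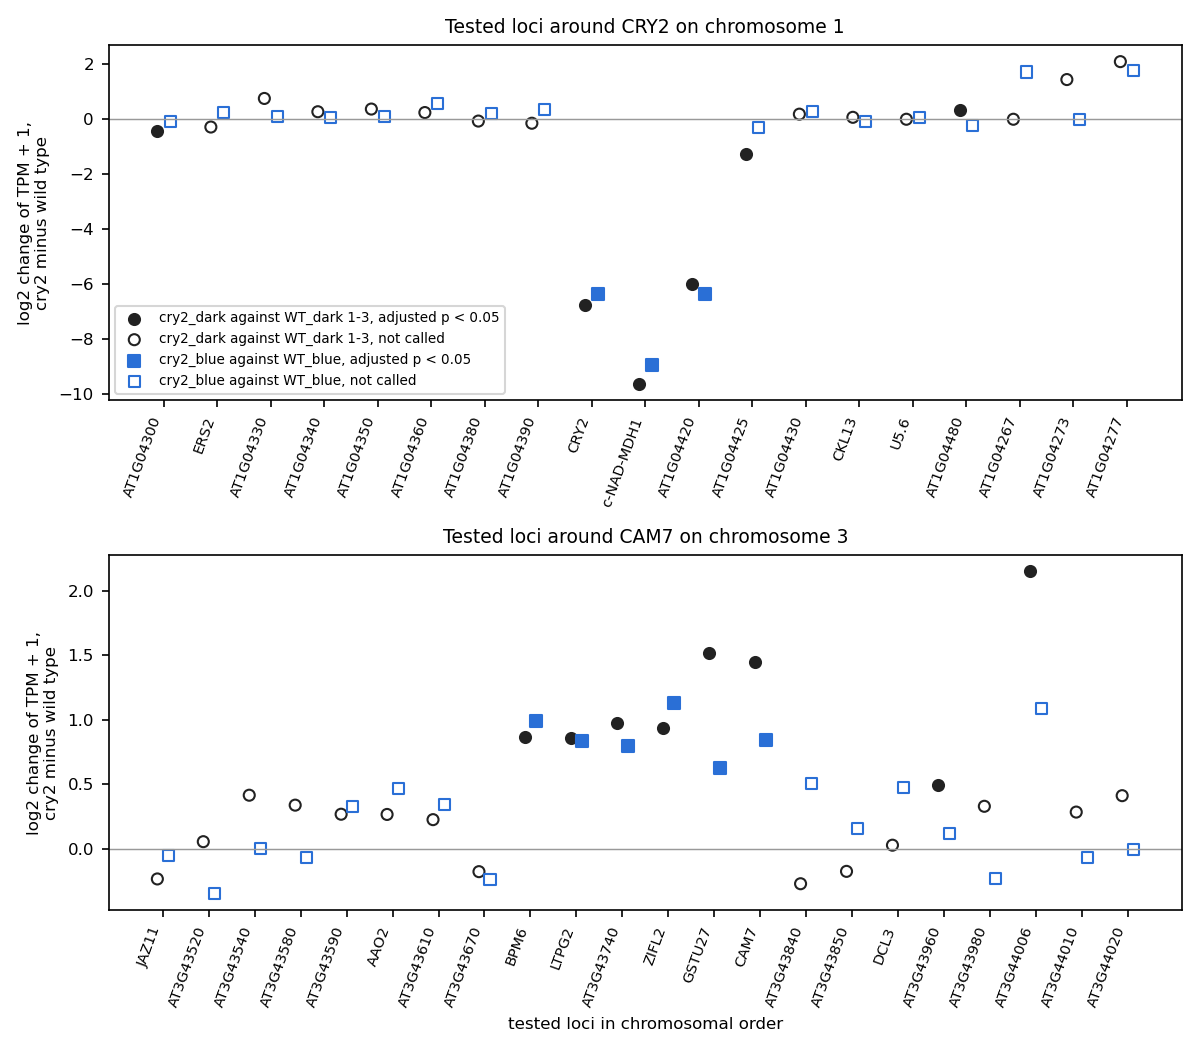
Log2 change of TPM + 1 between cry2-1 and wild type (y axis) for tested loci in chromosomal order (x axis) around CRY2 (top) and CAM7 (bottom), in darkness (black circles) and in blue light (blue squares); filled symbols were called. CRY2, c-NAD-MDH1 and AT1G04420 fall far below their neighbours, and the 6 loci from BPM6 to CAM7 are all filled and above 0.

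A part of the suberin genes was called higher. Suberin is the lipid polyester laid down in the walls of root endodermis and of wounded tissue. Of 16 tested suberin genes, 8 were called higher and 0 lower, beside 10.01% and 2.89% of all loci. This list, like every gene list here, was chosen with earlier results of these data known. A count above the share of all loci is therefore a description and not independent support. The median log2 change was 0.64 beside 0.096 for all loci. The summed TPM of the list overlapped between the groups, at 403.2 to 478.4 in WT_dark 1-3 and 453.2 to 527.9 in cry2_dark. Without single libraries 7 or 8 were called, and both scalings also gave 8. Against WT_dark 4-6, 5 of 15 were called higher with a median of 0.38, beside 21.3% of all loci. In blue light 7 of 16 were called higher with a median of 0.99, beside 2.61% of all loci. In whole seedlings, more cells of a type and more RNA per cell cannot be told apart.

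The called suberin genes span synthesis and export. CYP86A1, a fatty acid hydroxylase, was at 4.46, 4.68 and 6.70 TPM in WT_dark 1-3 and at 21.0, 16.7 and 22.7 TPM in cry2_dark (1.76 ± 0.29, adjusted p = 0.00401). Its change of 0.96 against WT_dark 4-6 was not called (adjusted p = 0.0532), and it was called in blue light (1.27). CYP86B1, which hydroxylates very-long-chain acids, was at 1.59, 1.01 and 2.17 TPM against 7.18, 5.50 and 7.64 TPM (1.60 ± 0.21, adjusted p = 0.000832), beside 1.21 and 1.23. Each of the cry2_dark libraries was above all 6 dark wild-type libraries for CYP86B1.

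ABCG6, an exporter of suberin precursors, went from 5.64, 3.93 and 6.17 TPM to 13.7, 12.9 and 15.3 TPM (1.27 ± 0.23, adjusted p = 0.00466), beside 1.5 and 1.62. GPAT5, the acyltransferase that makes suberin glycerides, went from 2.46, 1.70 and 2.84 TPM to 5.30, 5.94 and 7.81 TPM (1.14 ± 0.22, adjusted p = 0.00675), beside 1.24 and 1.04. The reductases FAR4 (0.94) and FAR5 (1.4), which make fatty alcohols, and the feruloyl transferase RWP1 (0.69) also rose. Against WT_dark 4-6, FAR4 (0.06) and FAR5 (0.19) were not called while RWP1 (1.12) was. The regulator MYB93 (1.06, adjusted p = 0.0254) kept its call in 1 of the 6 fits without a library. The uncalled members ranged from KCS20 (-0.28) to MYB53 (0.59).

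Casparian strip genes, which act in the same endodermal cells, gave 1 call. Of 11 tested, 0 were called higher and 1 lower, with a median of -0.092, beside 10.01% and 2.89% of all loci. Against WT_dark 4-6, 9 of 11 were called higher and 0 lower, with a median of 1.24, beside 21.3% and 20.2% of all loci. CASP5, a scaffold protein of the strip, was at 88.4, 109 and 92.1 TPM in WT_dark 1-3 and at 44.1, 37.7 and 48.2 TPM in cry2_dark (-1.14 ± 0.15, adjusted p = 0.000831). Against WT_dark 4-6, at 10.5 to 19.5 TPM, it was higher by 1.46 (adjusted p = 0.000986). The direction of CASP5, like that of the list's median, thus turned with the reference.

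Some genes of the phosphate starvation response were called higher too. Plants short of phosphate raise these genes through the transcription factor PHR1, which binds the motif GNATATNC and is held back by SPX proteins. Of 19 tested members of the list, 8 were called higher and 0 lower, beside 10.01% and 2.89% of all loci. The median was 0.60 beside 0.096. Rescaling without ribosomal and organelle loci gave 7 higher and 1 lower, and leaving out single libraries gave 4 to 8 higher: 5 without WT_dark 1 or WT_dark 2 and 4 without cry2_dark 3. Against WT_dark 4-6, 7 of 20 were called higher and 1 lower with a median of 0.37, beside 21.3% and 20.2% of all loci. In blue light 11 of 19 were higher and 0 lower with a median of 0.71, where 2.61% of all loci were called higher.

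The motif was looked for in the 250 bases before and 50 bases after the annotated start of genes in TAIR10.1 (NCBI RefSeq). GNATATNC is its own reverse complement, so a match counts for both strands. It was found in 1945 of 30910 such windows (6.29%), in 9 of the 19 tested phosphate genes (47.4%) and in 5 of the 8 called higher (62.5%). A match is a description of the sequence and not a binding site. The windows of the 3 called genes with a match before the annotated start are shown 5′ to 3′ on the strand of the gene, with the motif in capitals. In TAIR10.1 they lie at chr5:894332-894631 (plus strand), chr2:16256907-16257206 (plus strand) and chr1:27466299-27466598 (minus strand).
AT5G03545: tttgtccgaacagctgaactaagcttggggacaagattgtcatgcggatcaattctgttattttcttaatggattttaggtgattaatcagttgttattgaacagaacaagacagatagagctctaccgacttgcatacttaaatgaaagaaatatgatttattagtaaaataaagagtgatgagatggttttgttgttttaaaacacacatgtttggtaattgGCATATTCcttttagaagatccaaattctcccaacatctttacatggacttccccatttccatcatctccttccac
PHT1;4: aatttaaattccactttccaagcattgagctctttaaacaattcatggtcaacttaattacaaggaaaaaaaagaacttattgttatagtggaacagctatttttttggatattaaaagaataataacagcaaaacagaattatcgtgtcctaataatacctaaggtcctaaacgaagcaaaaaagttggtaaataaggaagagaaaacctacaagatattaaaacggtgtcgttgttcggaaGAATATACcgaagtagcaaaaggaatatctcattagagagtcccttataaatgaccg
PS2: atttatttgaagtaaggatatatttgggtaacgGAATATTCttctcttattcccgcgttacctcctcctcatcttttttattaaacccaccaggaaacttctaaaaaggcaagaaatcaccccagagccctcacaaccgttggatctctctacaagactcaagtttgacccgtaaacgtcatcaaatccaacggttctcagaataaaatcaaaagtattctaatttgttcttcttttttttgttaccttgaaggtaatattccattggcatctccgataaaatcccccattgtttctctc
The match lies at position -26 from the annotated start in AT5G03545, at -7 in PHT1;4 and at -217 in PS2, while those of SQD1 and SPX1 lie after the start, at 14 and 22.

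AT5G03545, also named AT4, encodes an RNA induced by phosphate starvation that titrates the microRNA miR399. It was at 41.0, 50.4 and 66.4 TPM in WT_dark 1-3 and at 134, 245 and 209 TPM in cry2_dark (1.86 ± 0.31, adjusted p = 0.00475). All cry2_dark libraries were above all 6 dark wild-type libraries, with 1.33 against WT_dark 4-6 and 1.95 in blue light. SPX1, a phosphate sensor that restrains PHR1, went from 10.3, 13.8 and 18.3 TPM to 31.7, 42.1 and 41.6 TPM (1.41 ± 0.23, adjusted p = 0.00311). WT_dark 4-6 held 13.4, 39.2 and 29.6 TPM of SPX1, so they overlapped with cry2_dark (0.59, adjusted p = 0.300).

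SQD1, which makes the sulfolipid that replaces phospholipids, went from 43.5, 50.9 and 55.2 TPM to 90.6, 99.3 and 107 TPM (0.98 ± 0.17, adjusted p = 0.00396), and was not called against WT_dark 4-6 (0.23). SPX2 rose by 0.60 and by 0.58 against WT_dark 4-6. The transporter PHT1;4 was at 16.6, 15.3 and 18.1 TPM against 25.4, 27.0 and 28.1 TPM (0.66 ± 0.15, adjusted p = 0.016), beside 1.25 and 1.1. Its call ended without WT_dark 1, WT_dark 2 or cry2_dark 3. PS2, a pyrophosphate-specific phosphatase, was called in 4 of those 6 fits (1.43 with all libraries), IPS1, a second RNA of the AT4 type, in 2 (0 to 0.43 TPM against 0.54 to 3.46 TPM), and PHO1;H1, a PHO1 family gene, in 2 (0.61). The root phosphate transporter PHT1;1 (-0.17) and PHR1 itself (0.21) were not called. Of the 27 genes listed, 8 did not reach the filter.

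Among iron genes, 1 call held without each library. Of 18 tested iron deficiency genes, 3 were called higher and 1 lower, beside 10.01% and 2.89% of all loci. Against WT_dark 4-6, 9 were called higher and 4 lower, beside 21.3% and 20.2% of all loci. IRT1, the main iron uptake transporter of root epidermis, was at 0.39, 0.74 and 0.87 TPM in WT_dark 1-3 and at 4.12, 5.12 and 4.93 TPM in cry2_dark (1.79 ± 0.18, adjusted p = 0.000127). It was listed at 0 in WT_dark 4-6 and WT_blue and reached at most 0.20 TPM in cry2_blue. Its activator FIT, given as FRU in the annotation,, was not called (-0.27), and FRO2 and IRT2, for iron reduction and uptake, stayed under the 1 TPM filter. NAS4 (0.85), AT3G13610 (0.97) and the ferritin gene FER1 (-0.66) each lost the call without at least 1 library: NAS4 without WT_dark 2 or cry2_dark 1, FER1 without WT_dark 1, WT_dark 2 or cry2_dark 3, and AT3G13610 without any 1 of the 6.

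Lipid-transfer and hybrid proline-rich protein genes gave 6 higher and 1 lower of 11, with a median of 0.57, beside 10.01% and 2.89% of all loci. Leaving out single libraries gave 3 to 5 higher, with 3 without WT_dark 1 or WT_dark 2. Against WT_dark 4-6 and in blue light, 3 were called higher and 1 lower. Of all loci, 21.3% and 20.2% were called higher and lower against WT_dark 4-6, and 2.61% and 0.736% in blue light. EARLI1, an AIR1 relative linked to cold and defence priming, was at 37.7, 30.1 and 22.2 TPM in WT_dark 1-3 and at 151, 193 and 172 TPM in cry2_dark (2.50 ± 0.17, adjusted p = 6.24e-06). WT_dark 4-6 held 182 to 262 TPM of EARLI1 and overlapped with cry2_dark (-0.42, adjusted p = 0.0589). LTP3 went the other way, from 68.4, 87.5 and 39.4 TPM to 20.6, 20.5 and 21.2 TPM (-1.53 ± 0.23, adjusted p = 0.00241), beside -1.23 (adjusted p = 0.0669) and -2.01 in blue light. LTP3 and the similar neighbouring gene LTP4 (-1.26, not called) may share reads.

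Most DNA replication genes tested were called higher, by less than 2-fold for those named. Of 20 tested S phase genes, 13 were called higher and 0 lower, with a median of 0.56, beside 10.01% and 2.89% of all loci. After rescaling 8 were called, after quantile normalization 10, and without single libraries 7 to 12: 8 without WT_dark 1, 7 without WT_dark 2 and 8 without cry2_dark 2 or cry2_dark 3. The replicative helicase subunit MCM5 was at 5.54, 5.44 and 5.10 TPM in WT_dark 1-3 and at 9.93, 10.5 and 11.8 TPM in cry2_dark (0.88 ± 0.12, adjusted p = 0.00122). MCM3 changed by 0.86, and ETG1, a replisome factor, by 0.86.

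Against WT_dark 4-6, MCM5 (-0.09), MCM3 (-0.03) and ETG1 (0.15) were not called. PCNA1, the sliding clamp, rose from 15.2, 15 and 15.5 TPM to 24.1, 27.5 and 23.9 TPM (0.68 ± 0.13, adjusted p = 0.00500), and against WT_dark 4-6 by 0.59. TSO2, a ribonucleotide reductase subunit, rose by 0.58 and by 0.55. In the list as a whole, 7 were called higher and 0 lower against WT_dark 4-6 and likewise in blue light. Of all loci, 21.3% were called higher against WT_dark 4-6 and 2.61% in blue light. Mitosis genes gave 3 higher and 0 lower of 22 with a median of 0.32, beside 10.01% and 2.89% of all loci. The 3 calls fell to 0 without WT_dark 1, WT_dark 2, cry2_dark 2 or cry2_dark 3 and after rescaling, and to 1 without cry2_dark 1. At an unadjusted p under 0.05, 12 of the 22 were higher. Over all loci, 28.3% passed that unadjusted threshold, 21.1% higher and 7.24% lower. Against WT_dark 4-6, 12 of the 22 mitosis genes were called higher and 2 lower with a median of 0.47, beside 21.3% and 20.2% of all loci. In blue light 3 were called higher and 0 lower, beside 2.61% and 0.736% of all loci.

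Cytosolic ribosomal protein genes gave 7 higher of 15 and 0 lower with a median of 0.30, beside 10.01% and 2.89% of all loci. Either rescaling gave 2 higher. RPS6 (0.56 ± 0.09, adjusted p = 0.00188) and STV1 (0.59 ± 0.10, adjusted p = 0.00424), which encodes ribosomal protein L24, were called without each library too. Against WT_dark 4-6 their changes of 0.31 and 0.30 were not called. Leaving out WT_dark 2 or cry2_dark 1 left 2 calls in the list, and leaving out WT_dark 1 or cry2_dark 2 left 4.

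Calls among photosynthesis genes were higher against WT_dark 1-3 and lower against WT_dark 4-6. Of 27 tested light-harvesting, photosystem and Rubisco genes, 15 were called higher and 0 lower, beside 10.01% and 2.89% of all loci. Their median was 0.51, and 12 to 14 were called higher without single libraries. Against WT_dark 4-6, 0 were called higher and 11 lower with a median of -0.60, beside 21.3% and 20.2% of all loci. In blue light 0 were called in either direction, with a median of 0.046. PSAK, a photosystem I subunit, was at 472, 351 and 429.7 TPM in WT_dark 1-3, at 1091, 903 and 1100.5 TPM in cry2_dark and at 1264, 1708 and 1748 TPM in WT_dark 4-6. Its change was 1.31 ± 0.14 (adjusted p = 0.000194) against the first set and -0.60 against the second (adjusted p = 0.0163). The cry2_dark level of PSAK thus lay between the wild-type sets.

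The same placing between the sets held for other genes of greening. CA1, a chloroplast carbonic anhydrase, ranged over 148 to 193 TPM in WT_dark 1-3, 340.0 to 389.9 in cry2_dark, and 403 to 657 in WT_dark 4-6. FSD2, a chloroplast iron superoxide dismutase, ranged over 16.4 to 20.5, 44.2 to 47.8 and 66.5 to 118 TPM in the same groups. RBCS3B, a Rubisco small subunit whose reads may be shared with its near copies, changed by 0.85 and by -0.87. LHCB3 (1.04) and LHCB6 (0.99), antenna proteins of photosystem II, were not called against WT_dark 4-6 (-0.46 and -0.22).

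Chlorophyll synthesis genes gave 8 higher and 0 lower of 16 with a median of 0.56, beside 10.01% and 2.89% of all loci. The higher count was 5 after rescaling and 6 after quantile normalization. Without single libraries it was 4 to 6: 6 without cry2_dark 1, 4 without WT_dark 2 and 5 without each of the others. Against WT_dark 4-6, 0 were called higher and 3 lower with a median of -0.22, beside 21.3% and 20.2% of all loci. POR C, a light-dependent protochlorophyllide oxidoreductase, went from 21.9, 16.8 and 21.6 TPM to 52.7, 42.6 and 51.0 TPM (1.24 ± 0.19, adjusted p = 0.00200), beside -0.29 against WT_dark 4-6. CHLI1, a magnesium chelatase subunit, changed by 0.77, PCB2, a divinyl reductase, by 0.79 and CRD1, the ring cyclase, by 0.62. None of these 4 was called in the second comparison or in blue light. Carotenoid genes gave 3 higher and 1 lower of 14 against WT_dark 1-3, but at most 1 higher without any single library, and 0 higher and 8 lower against WT_dark 4-6.

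Calls among abscisic acid genes went down. Of 13 tested members, 0 were called higher and 6 lower, with a median of -0.43, beside 10.01% and 2.89% of all loci. Single libraries left out gave 2 to 6 lower, with 2 without WT_dark 2 and 3 without WT_dark 3 or cry2_dark 3. Against WT_dark 4-6, where 20.2% of all loci were called lower, 3 of 13 were lower with a median of -0.33, and in blue light 1. RAB18, a dehydrin marker of the hormone, was at 9.91, 17.5 and 10.4 TPM in WT_dark 1-3 and at 4.98, 1.49 and 1.35 TPM in cry2_dark (-2.01 ± 0.33, adjusted p = 0.00315). In WT_dark 4-6 it was at 0.50 to 1.33 TPM, below every cry2_dark library (0.81, adjusted p = 0.112). HAI1 (-0.71) and ABI1 (-0.44), phosphatases that damp the hormone's signal, were not called against WT_dark 4-6 (0.13 and 0.15). ABI1 lost its call without WT_dark 2 (-0.40, adjusted p = 0.0518).

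Genes of sugar starvation gave 0 higher and 6 lower of 19 with a median of -0.35, beside 10.01% and 2.89% of all loci. The rescalings gave 9 and 10 lower. Single libraries left out gave 1 to 6 lower: 1 without WT_dark 2, 3 without cry2_dark 1 and 2 without cry2_dark 3. Against WT_dark 4-6, 5 were called higher and 0 lower, beside 21.3% and 20.2% of all loci. DIN2, a dark-inducible glycosyl hydrolase, was at 105, 151 and 133 TPM in WT_dark 1-3, at 61.0, 74.7 and 46.6 TPM in cry2_dark (-1.09 ± 0.21, adjusted p = 0.00762) and at 24.1 to 46.9 TPM in WT_dark 4-6. In blue light DIN2 was higher in cry2_blue (0.99, adjusted p = 0.0296).

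The clock list gave 0 higher and 7 lower of 18 with a median of -0.30, beside 10.01% and 2.89% of all loci. At an unadjusted p under 0.05, 8 were lower and 2 higher, which 7.24% and 21.1% of all loci passed. Without single libraries only 0 to 4 were called: 0 without WT_dark 2, WT_dark 3 or cry2_dark 1, 1 without WT_dark 1 or cry2_dark 3, and 4 without cry2_dark 2. Against WT_dark 4-6, 0 of 17 were higher and 8 lower with a median of -0.73, beside 21.3% and 20.2% of all loci. PRR7, a pseudo-response regulator, was at 10.3, 11.8 and 13.2 TPM against 6.39, 9.85 and 7.21 TPM (-0.55 ± 0.14, adjusted p = 0.0255), and lost its call without WT_dark 2 or 3 or cry2_dark 1 or 3. The evening gene TOC1 (-0.63, adjusted p = 0.0396) kept its call in 1 of the 6 fits.

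Among phenylpropanoid genes, the phenylalanine ammonia-lyases differed from each other. PAL2 was at 45.1, 41.1 and 47.4 TPM in WT_dark 1-3 and at 14.3, 16.7 and 14.3 TPM in cry2_dark (-1.5 ± 0.14, adjusted p = 7.89e-05). WT_dark 4-6, at 21.3, 13.7 and 19.1 TPM, overlapped with cry2_dark (-0.23), and in blue light PAL2 was higher in cry2-1 (1.72). PAL1 went from 97.6, 94.3 and 97.2 TPM to 115, 146 and 140.3 TPM (0.46 ± 0.10, adjusted p = 0.0138), beside 1.97 and 0.93, but lost its call without WT_dark 2, cry2_dark 2 or cry2_dark 3. Of 9 tested PAL, C4H and 4CL genes, 2 were called higher and 1 lower, beside 10.01% and 2.89% of all loci. The higher calls fell to 0 after rescaling and without WT_dark 2, cry2_dark 2 or cry2_dark 3, and to 1 without WT_dark 1 or WT_dark 3. Against WT_dark 4-6, 5 were called higher and 0 lower, beside 21.3% and 20.2% of all loci.

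Downstream, lignin genes gave 3 higher and 0 lower of 11, and flavonoid genes 2 higher and 0 lower of 9, beside 10.01% and 2.89% of all loci. Against WT_dark 4-6 the lignin list gave 9 higher and 0 lower and the flavonoid list 0 higher and 3 lower, beside 21.3% and 20.2% of all loci. The flavonoid count was 1 after rescaling and without any single library other than WT_dark 1. CCoAOMT1, a methyltransferase of monolignol synthesis, went from 347, 371 and 365 TPM to 519, 557 and 591 TPM (0.62 ± 0.11, adjusted p = 0.00417), beside 1.1 and 0.55. F3H, flavanone 3-hydroxylase, went from 9.47, 4.63 and 7.75 TPM to 16.4, 19.6 and 20 TPM (1.29 ± 0.20, adjusted p = 0.00206), and was not called against WT_dark 4-6 (-0.43). Outside these lists, PAD3, which makes the phytoalexin camalexin, belongs to the salicylate and pathogen response list. It went from 0.55, 1.07 and 0.79 TPM to 2.52, 4.16 and 3.6 TPM (1.29 ± 0.26, adjusted p = 0.00752), beside 0.89 and 1.27. That list gave 3 higher and 0 lower of 8, and at most 2 higher without any single library. Against WT_dark 4-6 it gave 4 higher and 0 lower, with the same shares of all loci as above.

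Light signalling genes gave few calls. Of 27 light transcription factor genes, 2 were called higher and 2 lower, with a median of -0.080, beside 10.01% and 2.89% of all loci. Against WT_dark 4-6, 1 of 23 was called higher and 8 lower, beside 21.3% and 20.2% of all loci. HY5, the bZIP factor that promotes greening, was at 64.2, 68.1 and 70.6 TPM in WT_dark 1-3 and at 50.4, 49.3 and 51.6 TPM in cry2_dark (-0.41 ± 0.08, adjusted p = 0.00733), and -1.25 against WT_dark 4-6. Its homologue HYH went from 23.5, 25.1 and 30.2 TPM to 68.0, 60.6 and 69.6 TPM (1.3 ± 0.14, adjusted p = 0.000248), but WT_dark 4-6 held 124 to 191 TPM (-1.14). PIF4, a growth-promoting factor, was lower (-0.53, adjusted p = 0.0141; -0.69 against WT_dark 4-6) except without WT_dark 2 (-0.44, adjusted p = 0.0734).

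Of 14 photoreceptor genes, 0 were called higher and 2 lower, CRY2 and UVR8 (-0.28), the latter in none of the 6 fits without a library. Of all loci, 10.01% were called higher and 2.89% lower. Against WT_dark 4-6, 3 were called higher and 5 lower, beside 21.3% and 20.2% of all loci. CRY1, the other main cryptochrome, was at 45.9, 47.6 and 47.8 TPM against 43.6, 49.3 and 46.5 TPM (-0.02 ± 0.13), and PHYA changed by -0.20 and PHYB by 0.02, neither called. Of 14 genes for CRY2 partners and inhibitors, 0 were called in darkness, where 1 passed an unadjusted p under 0.05, and 0 in blue light. Of all loci, 12.9% were called in darkness, 28.3% passed the unadjusted threshold there and 3.34% were called in blue light. Against WT_dark 4-6, 1 of 13 partner genes was called higher and 2 lower.

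Growth genes gave calls in small subsets. Of 26 expansin and xyloglucan enzyme genes, 6 were called higher and 0 lower with a median of 0.26, beside 10.01% and 2.89% of all loci. Against WT_dark 4-6, 21 were called higher with a median of 0.96, beside 21.3% of all loci. XTH31, which remodels xyloglucan, went from 266, 287 and 273 TPM to 428, 440.4 and 453 TPM (0.68 ± 0.12, adjusted p = 0.00348), beside 0.64 and, in blue light, -0.09. XTH18 changed by 0.76 and 0.83, and XTH5 by 0.76 and -0.06.

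The apical hook gene HLS1 was at 20.1, 25.3 and 25.9 TPM in WT_dark 1-3 and at 13.2, 12.1 and 12.7 TPM in cry2_dark (-0.85 ± 0.16, adjusted p = 0.00578), and WT_dark 4-6 lay at 10.4 to 15.4 TPM (-0.06). Auxin response genes gave 1 higher (IAA1, 0.91) and 1 lower (WES1, -0.42, called in 3 of the 6 fits without a library) of 29. Auxin transport and synthesis genes gave 2 higher and 1 lower of 20. Of all loci, 10.01% were called higher and 2.89% lower, so neither auxin list was above that share for higher calls. Against WT_dark 4-6 the auxin response list gave 8 higher and 0 lower of 29, beside 21.3% and 20.2% of all loci. The transport and synthesis list gave 15 higher and 0 lower of 20 there, 1 higher and 2 lower after either rescaling, and at most 1 higher without any single library. LAX1, an auxin influx carrier, changed by -0.64 (adjusted p = 0.00653), beside 0.07 against WT_dark 4-6. FLC, the floral repressor, went from 34.3, 40.7 and 31.5 TPM to 11.8, 17.0 and 14.4 TPM (-1.25 ± 0.17, adjusted p = 0.000958), beside -0.41 (not called) and -1.07 in blue light; it was the single call among 11 flowering genes, of which 6 were called lower against WT_dark 4-6 with a median of -0.74.

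Tissue marker lists gave few calls. The counts stand beside 10.01% of all loci called higher and 2.89% lower, and 21.3% and 20.2% against WT_dark 4-6. Of 8 tested root markers, 1 was called higher (IRT1) and 1 lower: PRP3, a root hair wall protein, at 4.43, 6.52 and 8.50 TPM against 1.37, 0.56 and 1.44 TPM (-1.81 ± 0.23, adjusted p = 0.000716). The summed TPM of the 16 root markers was 192 to 208 in WT_dark 1-3, 159 to 192 in cry2_dark and 85.7 to 95.0 in WT_dark 4-6. Against WT_dark 4-6, 4 of 7 root markers were called higher and 1 lower. The root hair regulator RSL4 reached at most 0.48 TPM in either group. Vascular markers gave 0 calls of 15 with a median of 0.018, 1 higher at an unadjusted p under 0.05, and a sum of 414 to 437 TPM against 360.4 to 453 TPM; against WT_dark 4-6, with 185 to 221 TPM, 10 were called higher and 2 lower.

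Shoot apex and stomatal markers gave 0 calls of 10 in limma (1 higher and 1 lower at an unadjusted p under 0.05), with sums of 180.0 to 197 TPM against 170.2 to 201 TPM. The stem cell genes WUS and CLV3 reached at most 0.15 and 0.75 TPM. Epidermis markers gave 0 higher and 1 lower of 6, the lower call being lost whichever library was left out. Against WT_dark 4-6, 1 of 12 shoot markers was called higher and 5 lower, and 4 of 7 epidermis markers higher and 0 lower. The shares of all loci there were 21.3% and 20.2%. Of 13 seed reserve genes, 1 reached the filter and 0 were called. Heat shock genes gave 0 calls of 16 (2 at an unadjusted p under 0.05), and primary wall cellulose genes 0 of 9 (0). Against WT_dark 4-6, 4 of 15 heat shock genes were called higher, near the 21.3% of all loci. There 7 of 9 cellulose genes were called higher, with a median of 0.56. The part of tissue make-up in the suberin, iron and Casparian strip results was not tested.

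**Figure D5:**
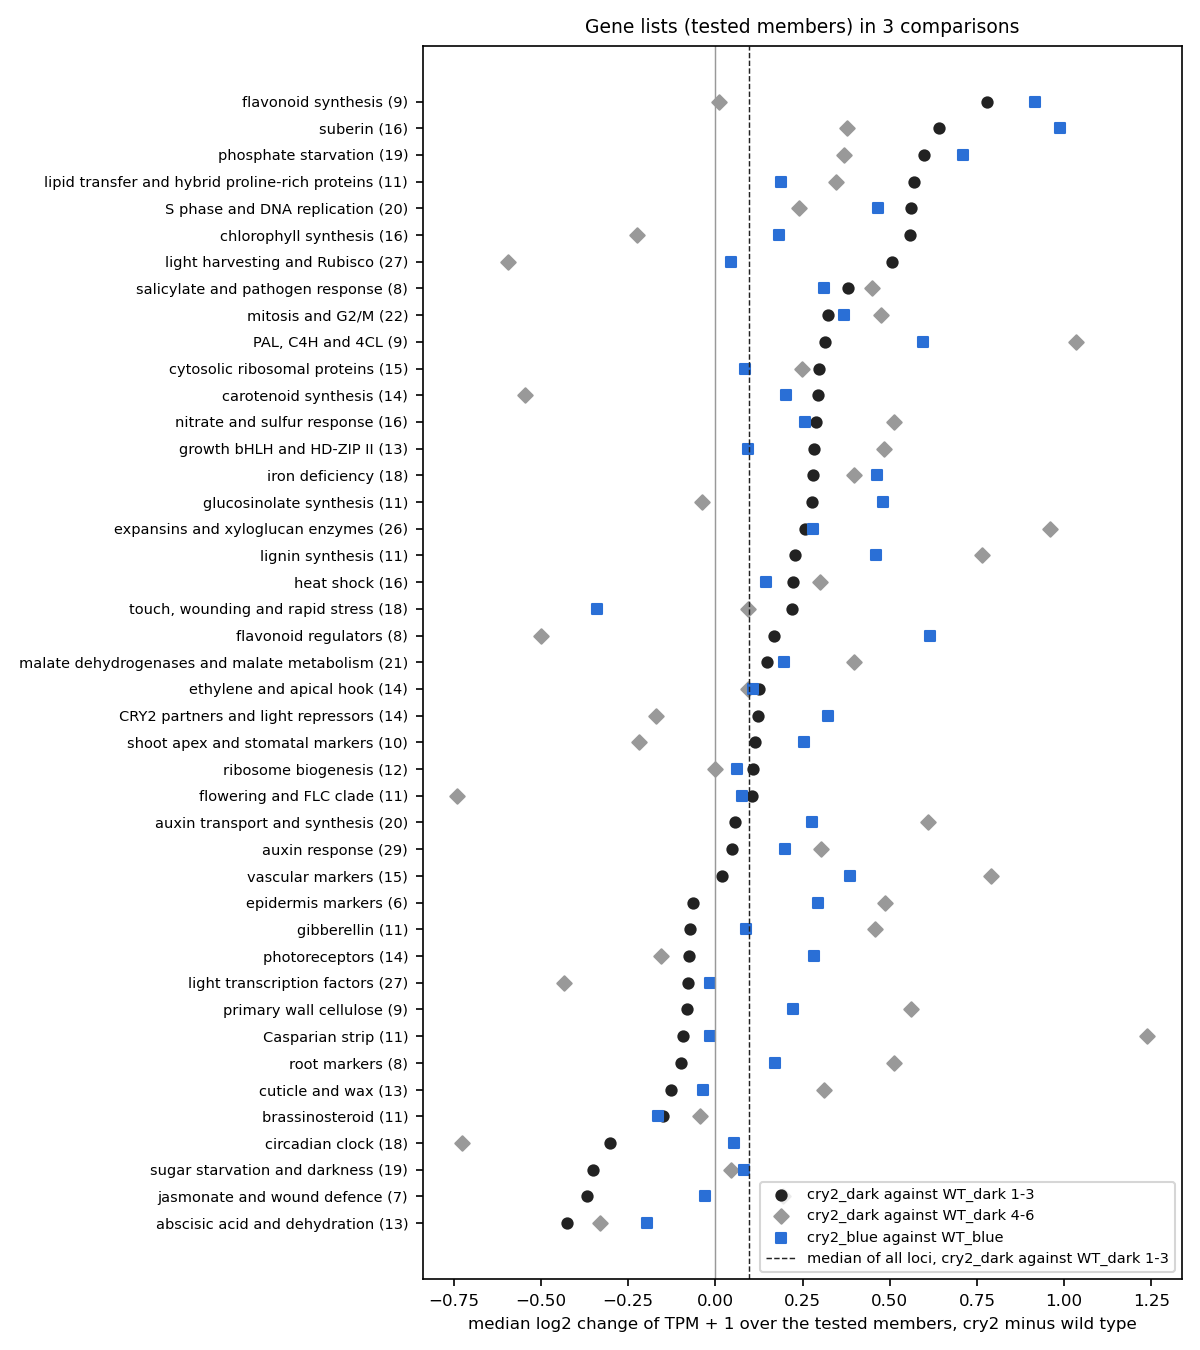
Median log2 change of TPM + 1 (x axis) over the tested members (number in brackets) of each gene list (y axis) for cry2_dark against WT_dark 1-3 (black), cry2_dark against WT_dark 4-6 (grey) and cry2_blue against WT_blue (blue). Suberin and phosphate starvation lie above 0 in all 3, as do many other lists, among them S phase, mitosis, lignin and iron deficiency. Light harvesting and Rubisco lies at 0.51, -0.60 and 0.046, and Casparian strip at -0.092, 1.24 and -0.016.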

How the data were processed

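Each library came as a deposited table of TPM, the length-scaled share of every locus in the reads; the reads were trimmed, aligned and quantified with fastp, HISAT2 and StringTie on TAIR10, per the submitters' processing notes, with versions not given in the sources used here. TPM keep no depth, so no counting error is given; each library summed to 997728 to 998279 TPM over 32833 loci, of which 32536 matched the TAIR10.1 annotation. TPM, not counts, were found, so limma 3.58.1 (R 4.3.3) with trend and robust moderation was run on log2(TPM + 1), which understates changes of low genes; p-values were Benjamini-Hochberg adjusted over all loci tested, at 0.05. Loci needed a mean of 1 TPM over the 12 libraries of the fit. The comparison with WT_dark 4-6 was fitted on its own 6 libraries. Named genes were the CRY2 neighbours within 20 kb and the 15 loci each way with the smallest limma p-values among calls of at least 2-fold. Up to 8 each way shared by all comparisons, loci lost or gained, and up to 4 called members per list were also named. Other list members and the chromosome 3 run were picked after their values were seen. The 44 gene lists and the members were chosen with earlier results of these data known. The pipeline was tested on simulated data. Same-numbered dark libraries did not deviate together, so no pairing was used. Other settings are given in the closing section; the fl4 libraries were not used.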

Additional observations from a re-analysis of the deposited data

Results flagged for a closer look

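For 39 named loci the genotype effect differed between blue light and darkness in a test of the difference itself (limma, adjusted p under 0.05). The blue-light libraries share the prefix M, while in darkness each genotype has its own prefix. A genotype effect that depends on light and a difference between the dark prefixes therefore cannot be told apart here. Values are the log2 effect in blue light minus that in darkness, so a negative value belongs to a gene whose change was more positive in darkness. PAL2 (3.22) was lower in cry2_dark and higher in cry2_blue, each past the threshold. Of genes higher in cry2_dark, the difference was EARLI1 (-1.67), CAM7 (-0.60), GSTU27 (-0.89), AT5G18900 (-0.62), IRT1 (-1.62) and AT2G43620 (-2.09). For photosynthesis and chloroplast genes it was CA1 (-0.94), PSAK (-1.44), FSD2 (-1.23), RBCS3B (-0.64), LHCB6 (-1.01) and RBCS1B (-0.99). Further genes higher in darkness were HYH (-1.33), XTH31 (-0.77), XTH18 (-0.88) and RPS6 (-0.65).

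The missing gene c-NAD-MDH1 (0.69) was at 0 in cry2_dark and, in cry2_blue, at 0.000342 of its WT_blue mean. Its value thus reflects the wild-type level and cannot show a changed genotype effect. Of the other genes lower in cry2_dark, the difference was AT3G52870 (1.36), AT4G16680 (1.2), JRG21 (2.1) and PRP3 (1.89). For stress, starvation and clock genes it was ABI1 (0.57), ABF3 (0.73), DIN2 (2.08), RAB18 (2.84), PRR7 (0.83) and AT3G54500 (0.95). For organelle and ribosomal DNA loci it was ATCG00350 (3.13), ATCG00270 (3.18), ATCG00340 (3.72), ATCG01050 (2.15), ATCG00280 (3.65), ATCG00380 (3.13), ATCG00100 (1.98), AT3G06355 (2.33) and AT2G01010 (2.73). AT2G01020 and AT3G41979 (both -10.51) carry the same values, listed at 0 in WT_dark 1-3 and at 1829, 1070 and 1414 TPM in cry2_dark.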

How the results depend on the processing

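The count of 2578 calls held within 1.5 times under other pseudocounts, filters, scalings and moderation, and moved in 2 other fits: 4568 with only the 6 libraries compared, and 414 with all 6 WT_dark libraries as the reference. Without single libraries it ranged from 1039 (without WT_dark 2) to 1838, with 1327 without WT_dark 1, 1451 without cry2_dark 1 and 1103 without cry2_dark 3. The 393 calls of at least 2-fold fell to 199 at a pseudocount of 5 and to 97 with all 6 WT_dark libraries, and 285 of them were called again without each library. In blue light, 668 calls ranged from 269 (without cry2_blue 2) to 790, with 355 without WT_blue 2. Of 150 called list members, 63 kept their call without each dark library. With the replicate number as a replicate block the dark count was 2275 and the blue count 603; same-numbered dark libraries correlated at -0.018, 0.02 and -0.056, so the numbers do not pair them.

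With all 6 WT_dark libraries as the reference, 10 named changes reversed: AT3G06355 (4.66), AT2G01010 (4.25), ATCG00350 (0.30), ATCG00340 (0.26), MYB4 (-0.056), CASP5 (0.16), WES1 (0.089), RBCS3B (-0.0089), NPQ1 (-0.22) and CDC20.1 (-0.16). The cause was not tested. Depth is unknown from TPM, so the precision of low genes is unknown too.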
